A study of Mus musculus with 4 samples.

Results

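The expression of Tnf, its receptors Tnfrsf1a and Tnfrsf1b, and 7 genes that act with or are switched on by the transcription factor NF-kB was examined in steatohepatitic mouse liver with and without dietary 7-ketocholesterol (7KC). The 10 genes were chosen by name and were found among the 24346 gene symbols listed for each library. They and the lists used below were chosen with earlier results of these data known. Their counts beside those of all genes are therefore descriptions. The samples were whole livers of male wild type C57BL/6 mice. Control mice were fed the NASH diet, which is rich in fat, cholesterol and sucrose and contains bile salt, for 3 weeks (n = 2 libraries). The mice of the 7KC group received the NASH diet with added 7KC, an oxidized derivative of cholesterol, for 3 weeks (n = 2 libraries). No library came from mice on a normal diet, so both groups carry the effects of the NASH diet. The labels do not say whether each library came from a separate animal, and the p-values measure only the spread between these libraries.

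TNF-α is a cytokine made mainly by activated macrophages and lymphocytes. It binds a receptor found on most cells, TNFR1 (Tnfrsf1a), and a receptor with a more restricted range that is prominent on leukocytes and endothelium, TNFR2 (Tnfrsf1b). Both receptors recruit adaptors of the TRAF and cIAP families, which lead to the destruction of the IκB inhibitors and release NF-kB into the nucleus. NF-kB then switches on inflammatory genes together with its own brakes, among them new IκB proteins and the ubiquitin-editing enzyme A20, and this negative feedback limits the response.

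Expression was deposited as FPKM, a fragment count scaled by exon length and by the size of the library. The steps between low values gave an estimated depth of between 13650000 and 16950000 mapped reads in a library. Genes are no independent replicates, and over the 12299 tested their log2 values correlated at 0.98 within the control group, 0.983 within the 7KC group and 0.958 to 0.979 between groups. The summed FPKM was 685028 and 671235 in control livers, against 619828 and 557138 in 7KC livers. The liver origin was checked with 8 hepatocyte markers, which together stood at 36239 to 68292 FPKM.

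The comparison of interest asked how adding 7KC to the NASH diet bore on the TNF and NF-kB feedback genes. All 10 genes had higher values in both 7KC libraries than in both control libraries. Tnfaip2, a TNF-induced gene, rose from 11.7 ± 0.954 to 35.9 ± 0.912 FPKM (SD, n = 2 each), and Nfkbie, which encodes the NF-kB inhibitor IκBε, rose from 3.18 ± 0.0331 to 9.02 ± 0.826 FPKM (SD, n = 2 each). The other 8 genes did not pass the test. Tnfrsf1a had the smallest ratio of means, 1.07, with mean values of 60.4 ± 1.40 and 64.6 ± 1.35 FPKM (SD, n = 2 each).

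The test was limma on log2(FPKM + 0.5) over the genes averaging 0.5 FPKM or more, with Benjamini-Hochberg adjustment over all of them and a threshold of 0.05. Each of the 10 genes passed the filter on low values and was above 0.5 FPKM in every library. Of the 10, 2 were higher at the threshold, where 0.48% of all tested genes were. None was lower, where 0.0244% of all tested genes were. At an unadjusted p under 0.05, 8 of the 10 were higher, against 12% of all genes. Without any variance estimate, 10 of 10 lay above the control libraries without overlap, against 25.1% of all genes. None of the 10 lay below them, against 27.4% of all genes. Those at least 2-fold higher in the mean without overlap numbered 6 of 10, against 6.5% of all genes. The median log2 change of the 10 genes was 1.13, beside -0.03 for all genes tested. Both calls were lost when either 7KC replicate was left out, Nfkbie was also lost without control replicate 2 (limma adjusted p 0.0602), and 6 genes passed when control replicate 1 was left out.

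**Figure D1:**
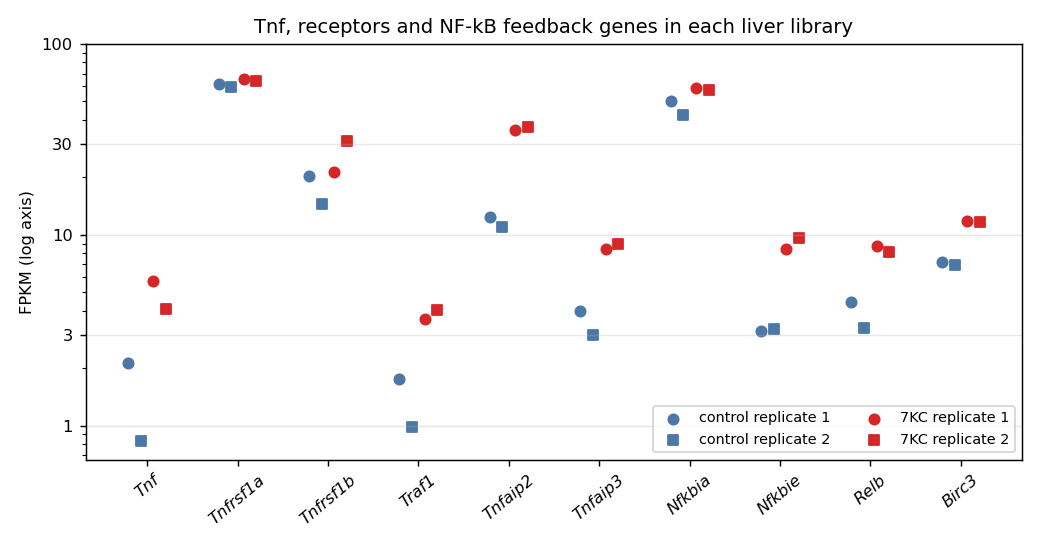
FPKM of each gene (log axis) in the 4 libraries, with control libraries in blue and 7KC libraries in red, circles for replicate 1 and squares for replicate 2. Both red points lie above both blue points for every gene, by a wide margin for Tnfaip2 and Nfkbie and by little for Tnfrsf1a and for Tnfrsf1b, where 20.3 FPKM in control replicate 1 stands next to 21.3 FPKM in 7KC replicate 1.

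Tnf (chromosome 17, 35199381 to 35202007, minus strand, mm10) encodes the ligand. It measured 2.13 and 0.826 FPKM in control livers, against 5.74 and 4.10 FPKM in 7KC livers. The groups did not overlap, but the control libraries differed from each other by more than the 7KC libraries did in relative terms. The lowest value, in control replicate 2, corresponded to about 16 reads, a number whose counting error is 24.7% (coefficient of variation). The log2 change was 1.52, with a 95% interval from 0.61 to 2.43 (limma adjusted p 0.127). With 1 library left out the log2 change of Tnf ranged from 1.02, without control replicate 2, to 2.01, without control replicate 1. Only the latter of the 13 alternatives passed the threshold (limma adjusted p 0.0223), and the adjusted p ranged up to 0.434, without 7KC replicate 2.

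The receptors differed in level and in how closely their libraries agreed. Tnfrsf1a (chromosome 6, 125349362 to 125362484, plus strand) measured 61.4 and 59.4 FPKM in control livers, against 65.5 and 63.6 FPKM in 7KC livers. It was the most abundant of the 10 genes in each library on this length-adjusted scale. Its log2 change was 0.10, with a 95% interval from -0.17 to 0.36 (limma adjusted p 0.668), which corresponds to a ratio between 0.889 and 1.28. Tnfrsf1b (chromosome 4, 145213463 to 145246870, minus strand) measured 20.3 and 14.6 FPKM in control livers, against 21.3 and 31.2 FPKM in 7KC livers. Control replicate 2 was the lowest and 7KC replicate 2 the highest, and the replicates numbered 1 lay close together between them. The log2 change of Tnfrsf1b was 0.57, with a 95% interval from -0.04 to 1.18 (limma adjusted p 0.303).

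A pair of adaptors that bind TNF receptors were among the genes, Traf1 and Birc3, and both are known as targets of NF-kB. Traf1 (chromosome 2, 34941750 to 34961772, minus strand), a member of the TRAF family that joins TRAF2 at the receptor, measured 1.76 and 0.987 FPKM in control livers, against 3.64 and 4.02 FPKM in 7KC livers. The 7KC values were close to each other and both lay above 3 FPKM. The log2 change of Traf1 was 1.24 (SE 0.23, limma adjusted p 0.086). Birc3 (chromosome 9, 7848699 to 7873186, minus strand) encodes the ubiquitin ligase cIAP2, which modifies RIPK1 at the receptor. It measured 7.18 and 6.94 FPKM in control livers, against 11.9 and 11.7 FPKM in 7KC livers, so that replicates differed far less than the groups. The log2 change of Birc3 was 0.70 (SE 0.11, limma adjusted p 0.0619). Birc3 has a close relative in Birc2, and reads shared between them could have been split by the authors' counting.

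The inhibitors of NF-kB were Nfkbia, Nfkbie and Tnfaip3. Nfkbia (chromosome 12, 55489410 to 55492647, minus strand) encodes IκBα, the inhibitor that is resynthesized most rapidly after NF-kB enters the nucleus. It measured 50.2 and 42.4 FPKM in control livers, against 59.1 and 57.4 FPKM in 7KC livers, a log2 change of 0.33 with a 95% interval from 0.01 to 0.65 (limma adjusted p 0.266). Nfkbia was the second most abundant of the 10 genes in every library. Nfkbie (chromosome 17, 45555703 to 45563169, plus strand) measured 3.15 and 3.20 FPKM in control livers, against 8.44 and 9.61 FPKM in 7KC livers. Its log2 change was 1.37, with a 95% interval from 1.05 to 1.69 (limma adjusted p 0.0313). Tnfaip3 (chromosome 10, 19000910 to 19015657, minus strand) encodes A20, which removes the ubiquitin chains that carry the signal from the receptor. It measured 4.0 and 2.98 FPKM in control livers, against 8.43 and 8.98 FPKM in 7KC livers. The 7KC values lay above the control values by more than the distance within either group, and the log2 change of Tnfaip3 was 1.22 (SE 0.16, limma adjusted p 0.0534). Tnfaip3 passed under 2 of the 13 alternatives, with every library set to an equal sum (limma adjusted p 0.0292) and without control replicate 1 (limma adjusted p 0.0209), and its adjusted p ranged up to 0.322, without 7KC replicate 2.

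Relb (chromosome 7, 19606217 to 19629438, minus strand) encodes an NF-kB subunit of the alternative pathway whose gene is itself induced by NF-kB. It measured 4.45 and 3.26 FPKM in control livers, against 8.70 and 8.10 FPKM in 7KC livers. The groups did not overlap, and the log2 change of Relb was 1.04 (SE 0.17, limma adjusted p 0.0648). Tnfaip2 (chromosome 12, 111442469 to 111455018, plus strand) measured 12.4 and 11.0 FPKM in control livers, against 35.3 and 36.6 FPKM in 7KC livers. Replicates of Tnfaip2 lay close together in both groups, and its log2 change of 1.58, with a 95% interval from 1.29 to 1.87, had the smallest p of the 10 (limma adjusted p 0.0244). The ratio of mean FPKM was 3.07 for Tnfaip2 and 3.32 for Tnf, so which of them had the larger difference depends on the scale. Only 9 of the 12299 genes had a smaller p than Tnfaip2.

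**Figure D2:**
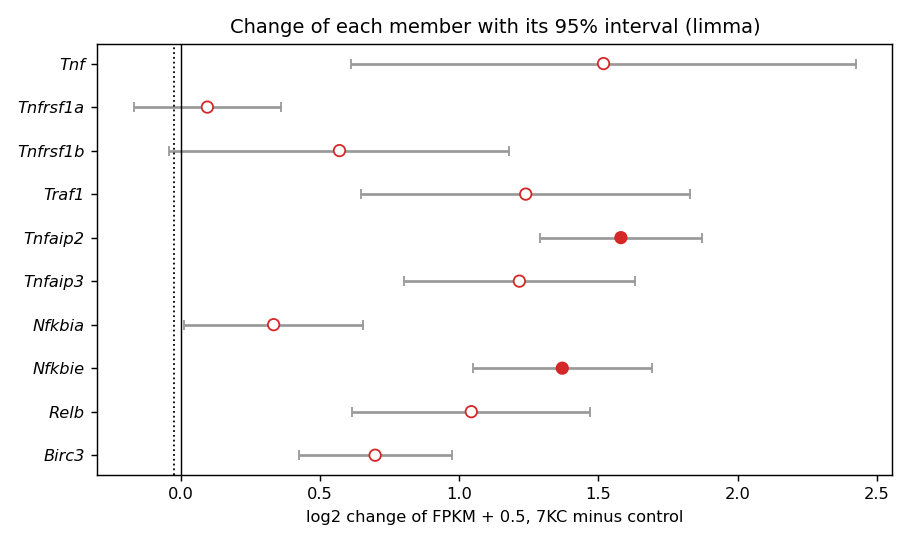
Log2 change of FPKM + 0.5 (7KC minus control) with its 95% interval for each gene, where filled points passed the threshold and the dotted line is the median of all genes tested, -0.03. The intervals of Tnfrsf1a and Tnfrsf1b include 0, that of Nfkbia starts at 0.01, and those of Tnfaip2 and Nfkbie lie above 1.

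Because several of these genes are known targets of NF-kB, the sequence before the start sites of the genes was searched for the NF-kB consensus decamer. Both strands were searched, in windows from 250 bases before to 50 bases after each RefSeq start (GRCm38.p6). Of 10 windows, which belong to 9 of the genes, 4 held at least 1 match, against 10.3% of the 11945 windows of tested genes and 8.46% of all 32851 windows. These were the windows of Nfkbia, Nfkbie, Tnfaip2 and the upstream of 2 windows of Tnfaip3. The genes include both that passed the threshold and the 3 inhibitors, so their 150 bases before the start are shown from 5′ to 3′ on the strand of the gene, with the matches in capitals. A match is a description of the letters and not a measured binding site. In lists described below, 17 of 50 windows of other TNF and NF-kB genes (34%) held a match. So did 10 of 27 windows of known NF-kB targets (37%). The share of 40% for the windows of the 10 genes was close to both. The starts are those of RefSeq, while the gene spans given above are those of GENCODE M21. By those spans the stretches of Tnfaip2 and Tnfaip3 lie within the gene, and those of Nfkbia and Nfkbie lie before it.
Nfkbia, chr12:55492648-55492797, minus strand: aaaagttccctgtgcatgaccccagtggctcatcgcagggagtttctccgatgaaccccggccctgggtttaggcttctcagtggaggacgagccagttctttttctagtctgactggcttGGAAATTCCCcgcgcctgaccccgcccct
Nfkbie, chr17:45555550-45555699, plus strand: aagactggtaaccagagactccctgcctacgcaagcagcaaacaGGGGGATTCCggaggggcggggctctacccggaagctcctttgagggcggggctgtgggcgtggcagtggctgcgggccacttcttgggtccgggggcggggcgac
Tnfaip3, chr10:19015411-19015560, minus strand: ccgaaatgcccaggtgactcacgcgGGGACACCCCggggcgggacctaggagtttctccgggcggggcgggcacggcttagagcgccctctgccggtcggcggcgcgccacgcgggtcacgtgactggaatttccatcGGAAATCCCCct
Tnfaip2, chr12:111442511-111442660, plus strand: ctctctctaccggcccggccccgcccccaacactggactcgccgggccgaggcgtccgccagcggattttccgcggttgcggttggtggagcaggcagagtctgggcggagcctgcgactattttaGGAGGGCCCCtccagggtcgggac

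The match of Nfkbia lay at -29 to -20 from the start, where -1 is the last base before it, that of Nfkbie at -106 to -97, that of Tnfaip2 at -24 to -15, and those of Tnfaip3 at -125 to -116 and at -12 to -3. The windows of Tnf, Tnfrsf1a, Tnfrsf1b, Traf1 and Birc3 held no match in these letters. Among the genes with a match the log2 changes were 1.58 for Tnfaip2, 1.37 for Nfkbie, 1.22 for Tnfaip3 and 0.33 for Nfkbia. Among those without one they were 1.52 for Tnf, 1.24 for Traf1, 0.70 for Birc3, 0.57 for Tnfrsf1b and 0.10 for Tnfrsf1a. Sequence outside the windows was not searched, and whether a match bears on the change was not tested.

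Ratios between related genes within a library do not depend on how the libraries are scaled. The ratio of Tnfrsf1b to Tnfrsf1a was 33% and 24.5% in control livers, against 32.5% and 49% in 7KC livers. These overlapped, and the log2 difference of 0.49 did not stand apart (exact permutation test, two-sided, p = 0.667). The ratio of the inhibitor Nfkbie to the inhibitor Nfkbia was 6.28% and 7.54% in control livers, against 14.3% and 16.7% in 7KC livers. These did not overlap, a difference of 2.24-fold. The ratio of Traf1 to its relative Traf2 was 43.1% and 28.7% in control livers, against 89% and 107% in 7KC livers, a difference of 2.78-fold. The ratio of Relb to Rela, the main subunit of the canonical pathway, was 25% and 17.3% against 40.2% and 39.1%, a difference of 1.90-fold. The ratio of Birc3 to Birc2 was 88.1% and 86.5% against 112% and 118%, a difference of 1.32-fold. The exact permutation p was 0.333 for each of these 4 pairs and 0.416 after adjustment over the 5 pairs, and 0.333 is the smallest that 2 libraries against 2 allow. The pairs other than the receptors were chosen after the values were seen.

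**Figure D3:**
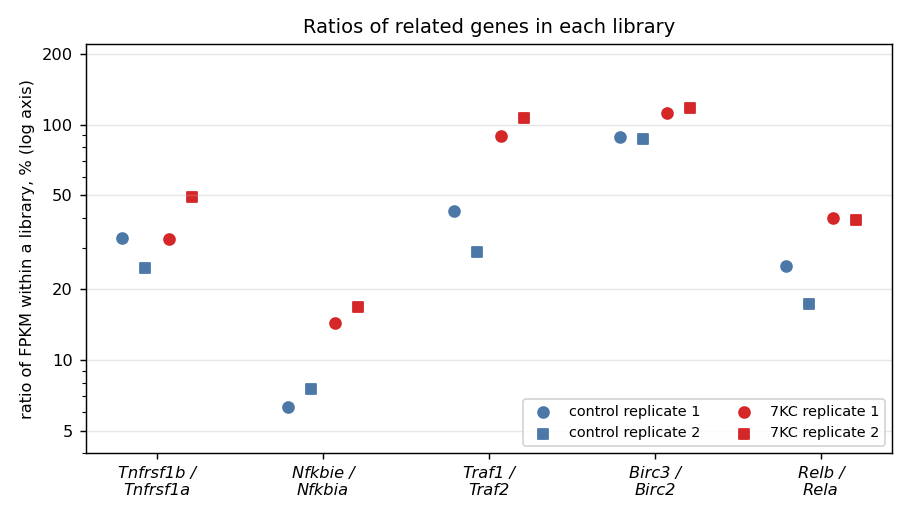
Ratio of FPKM of related genes within each library in percent (log axis), control in blue and 7KC in red, circles for replicate 1 and squares for replicate 2. The 7KC libraries lie above the control libraries for 4 pairs, and for Tnfrsf1b to Tnfrsf1a control replicate 1 at 33% lies just above 7KC replicate 1 at 32.5%.

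The rest of the pathway was described with a list of 46 other TNF and NF-kB genes, of which 44 were tested. None passed the threshold in limma, where 0.48% of all tested genes were higher and 0.0244% lower. At an unadjusted p under 0.05 there were 14 higher and 1 lower, against 12% and 5.81% of all tested genes. The 7KC livers stood above the control livers without overlap in 27 of the 44, against 25.1% of all tested genes. They stood below them in 3, against 27.4%. The median log2 change was 0.21. Log2 changes were above 0 for 35 genes and below 0 for 9. With every library set to an equal sum the split was 41 to 3, so the smaller changes depend on the scaling. The counts of higher genes include Tnip3, named after its values were seen. It measured 0.261 and 0.141 FPKM in control livers, against 0.978 and 0.849 FPKM in 7KC livers. Tnip3 passed the filter on low values only through the 7KC livers, so it supports nothing about the list. The 10 kinases had a median log2 change of 0.06. The 11 receptor adaptors and ubiquitin ligases had a median of 0.16. The medians were 0.36 for the 4 other NF-kB subunits and likewise 0.36 for the 4 other IκB family genes. The 9 other feedback genes had a median of 0.01, with 5 log2 changes above 0 and 4 below. The 3 tested genes for ligands and shedding had a median of 0.72, and the 3 tested other TNF-induced genes had 0.75.

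Within each role the gene with the smallest p is given. Tnip1, which encodes the A20 partner ABIN1, measured 10.3 and 8.31 FPKM in control livers, against 18.7 and 17.6 FPKM in 7KC livers, which gave a log2 change of 0.94 (limma adjusted p 0.0606, SE 0.14). Nfkb2, the partner of RelB in the alternative pathway, measured 7.69 and 5.67 FPKM against 11.8 and 12.0 FPKM, which gave a log2 change of 0.80 (limma adjusted p 0.101, SE 0.17). Nfkbid, a nuclear member of the IκB family, measured 1.10 and 0.760 FPKM against 2.18 and 2.52 FPKM, which gave a log2 change of 1.0 (limma adjusted p 0.0913, SE 0.19). In all of these the groups did not overlap. Rhbdf2, which encodes iRhom2, a carrier of the TNF-releasing protease ADAM17, measured 4.63 and 3.79 FPKM against 7.01 and 7.46 FPKM, which gave a log2 change of 0.72 (limma adjusted p 0.0934, SE 0.14). Map3k8, the kinase TPL2, had a log2 change of 0.50, Birc2 of 0.32 and Tnfaip8 of 0.75 (limma adjusted p 0.19, 0.238 and 0.161). The gene that was lower at an unadjusted p under 0.05 was Zfp36, which encodes tristetraprolin, a protein that destabilizes Tnf mRNA. It measured 94.8 and 92.7 FPKM in control livers, against 77.3 and 69.3 FPKM in 7KC livers, which gave a log2 change of -0.35 (limma adjusted p 0.218, SE 0.12). Among all genes 5.81% were lower at an unadjusted p under 0.05. Zfp36 was named after its value was seen, and with every library set to an equal sum its log2 change was -0.15.

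A list of 31 known NF-kB targets outside the 10 genes had 28 tested. At the threshold none of the 28 fell, against 0.0244% of all tested genes, and 3 rose, against 0.48%. These were Nos2, the inducible nitric oxide synthase, Icam1, an adhesion molecule for leukocytes, and Ptgs2, the inducible cyclooxygenase, which rose by 2.95, 1.32 and 1.88 on the log2 scale (adjusted p by limma 0.0275, 0.034 and 0.0473). Ptgs2 measured 0.191 and 0.0913 FPKM in control livers, so that it passed the filter on low values only through the 7KC livers, with 2.06 and 1.66 FPKM, and its call supports nothing about the list. All 3 calls were lost without a filter (limma adjusted p 0.119 for each), without either 7KC replicate (0.131 to 0.237) and with the replicate number as a block (0.148 to 0.158). Those of Icam1 and Ptgs2 were also lost without control replicate 2 (limma adjusted p 0.0734 and 0.0843), that of Icam1 without a trend in the prior variance (0.0603), and that of Ptgs2 with a pseudocount of 0.1 (0.0538), a mean of at least 1 FPKM (0.0506) and quantile normalization (0.0669). Icam1 measured 14.2 and 12.3 FPKM in control livers, against 36.1 and 31.7 FPKM in 7KC livers. The median log2 change of the list was 0.99. Of the 28, 16 were at least 2-fold higher without overlap, against 6.5% of all tested genes. Both the 3 calls and the 16 include Ptgs2. A log2 change below 0 was found for 2 of 28. One of these was the chemokine gene Cxcl1, with 22.9 and 20.5 FPKM in control livers, against 21.9 and 13.4 FPKM in 7KC livers, and the other was the survival gene Bcl2l1, at 25.9 and 22.2 FPKM against 22.5 and 21.9 FPKM. These 2 were named after their values were seen.

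**Figure D4:**
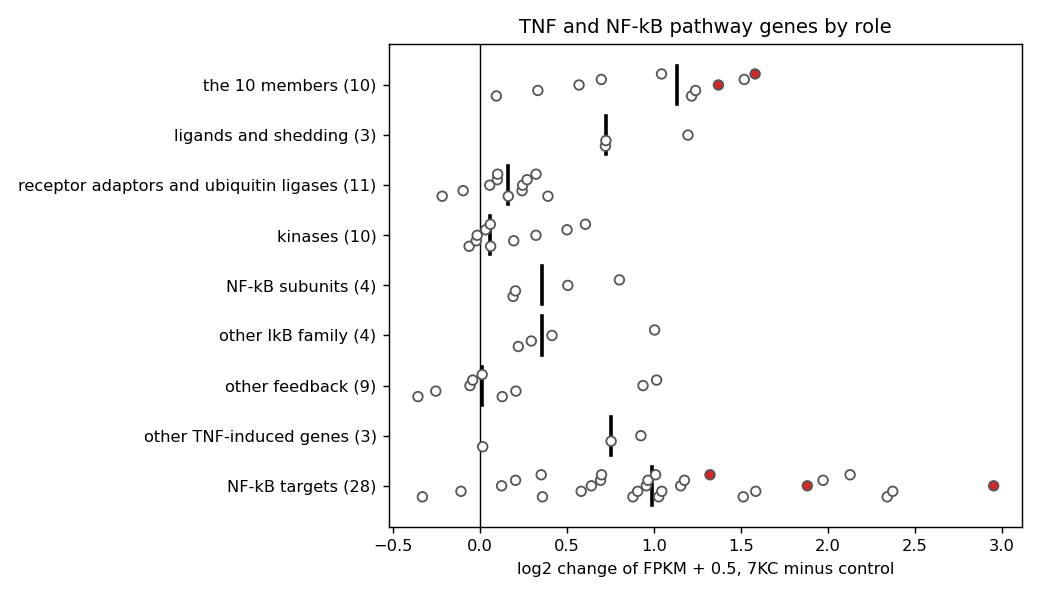
Log2 change of FPKM + 0.5 (7KC minus control) of each tested gene by role, with the number of genes in brackets, filled points past the threshold and a bar at the median of each role. The 10 members and the NF-kB targets have medians of 1.13 and 0.99. The kinases, the receptor adaptors and the other feedback genes have medians of 0.06, 0.16 and 0.01.

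Leukocyte genes differed between the groups in the same direction. The 5 leukocyte markers Ptprc, Coro1a, Laptm5, Cd53 and Cd52 summed to 223 and 131 FPKM in control livers, against 437 and 485 FPKM in 7KC livers. Most of each sum was Cd52, at 151 and 79.7 FPKM against 314 and 314 FPKM. Each of the 5 stood at least 2-fold higher with no overlap, against 6.5% of all tested genes. None of the 5 passed the threshold in limma. Of 8 macrophage and monocyte markers, 7 lay above the control libraries without overlap, against 25.1% of all tested genes. The other, Adgre1, overlapped, at 9.93 and 14.5 FPKM in control livers, against 14.3 and 28.6 FPKM in 7KC livers. The sum of the 8 was 648 and 416 FPKM in control livers, against 1189 and 1874 FPKM in 7KC livers. Most of it was Lyz2, at 538 and 321 FPKM against 995 and 1583 FPKM. The 7 T and NK cell markers summed to 11.8 and 8.05 FPKM against 28.9 and 26.1 FPKM. The sums of 8 hepatocyte markers were 68292 and 56534 FPKM in control livers, against 48371 and 36239 FPKM in 7KC livers. In whole liver a larger number of cells of a type and more RNA per cell cannot be told apart. The part of these cells in the changes of the TNF genes was not tested.

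Each gene was also expressed relative to Ptprc, which encodes the pan-leukocyte antigen CD45 and measured 8.47 and 5.65 FPKM in control livers, against 15.5 and 20.6 FPKM in 7KC livers. This measure was chosen after the values were seen. On this scale none of the 10 genes was higher in the 7KC group without overlap, 6 overlapped and 4 were lower. The shares over all tested genes were not computed, here or for the summed leukocyte markers below. Ptprc itself had a log2 change of 1.31, beside a median of -0.03 over all genes tested. Dividing by it lowers the 7KC values relative to the control values for any gene. These counts therefore show nothing particular to the 10 genes. Tnf was at 25.2% and 14.6% of Ptprc in the control libraries and at 36.9% and 19.9% in the 7KC libraries. Tnfaip2 was at 146% and 195% against 227% and 177%. Nfkbie was at 37.2% and 56.6% against 54.3% and 46.6%, so that neither of the genes past the threshold separated the groups on this scale. The 4 lower genes were Tnfrsf1a, Tnfrsf1b, Nfkbia and Birc3, each of which had a smaller fold than Ptprc. Relative to the sum of the 5 leukocyte markers, 5 genes overlapped, 4 were lower and 1, Traf1, was higher, at 0.786% and 0.752% against 0.833% and 0.829%.

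**Figure D5:**
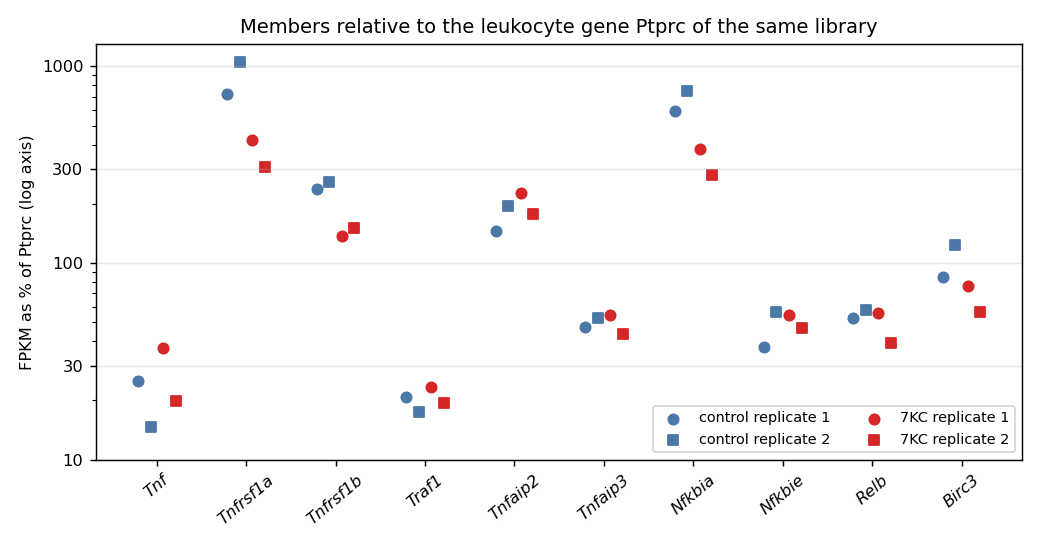
FPKM of each gene as a percent of Ptprc of the same library (log axis), control in blue and 7KC in red, circles for replicate 1 and squares for replicate 2. Red and blue points overlap for Tnf, Traf1, Tnfaip2, Tnfaip3, Nfkbie and Relb, and red points lie below blue points for Tnfrsf1a, Tnfrsf1b, Nfkbia and Birc3.

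The genes with the pattern across the 4 libraries most like that of Tnf were sought by the root mean square difference of log2(FPKM + 0.5), each gene centred on its own mean. The nearest of the 12299 genes were Pdcd1, which encodes the lymphocyte receptor PD-1, Saa3, an inflammation-induced serum amyloid gene, and Lck, a kinase of T cells, at differences of 0.0891, 0.118 and 0.122. Pdcd1 measured 0.742 and 0.167 FPKM in control livers, against 2.91 and 2.01 FPKM in 7KC livers. It passed the filter on low values only through the 7KC livers. The order rests on 4 libraries, and the counting error of Tnf in control replicate 2 was 24.7%, so it is uncertain which genes are nearest. Lck measured 3.01 and 1.28 FPKM in control livers, against 6.47 and 5.88 FPKM in 7KC livers, so that like Tnf it was lowest in control replicate 2. The nearest of the other 9 genes was Traf1, at a difference of 0.28 and the 84th in the order, and the farthest was Tnfrsf1a, at 0.798.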

How the data were processed

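RNA sequencing libraries of liver were prepared by the authors with a stranded mRNA kit and read as single ends. Per the labels' processing notes, the tools were TopHat2 2.1.1, Bowtie2 2.2.8, SAMtools 0.1.18 and Cuffdiff 2.2.1 with genome mm10. The methods of the study name Cufflinks and other versions of these aligners, and which made the files is unclear. FPKM values were deposited by the authors, 1 for each symbol in each library. Which annotation was used and the handling of multi-mapped reads and strand are not given in the sources used here. FPKM is a share of the mapped reads, so a fall in a few abundant genes raises every other gene. Whether the values were also rescaled across libraries is not given in the sources used here. Depth was estimated from the values of single-transcript genes (GENCODE M21 lengths less 200 bases), of which 75.8% to 77% came out within 0.1 of a whole read in the range up to 6 reads, where 20% would by chance. Reads per gene are approximate and use the longest coding transcript.

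Groups were taken from the sample titles. Values were compared as log2(FPKM + 0.5), which understates the change of low genes, with limma 3.58.1 in R 4.3.3 (2 residual and 3.27 prior degrees of freedom, prior variance following mean expression). The code was tested on simulated data. Ratios were tested by exact permutation. The genes, lists and tests were chosen with earlier results of these data known. Genes named beside the 10 were those past the threshold in the pathway and target lists, the gene with the smallest p in each pathway role, the 3 nearest to Tnf in pattern and Ptprc, apart from those said to be named after their values were seen. Adgre1, a macrophage marker, was at 9.93 and 14.5 FPKM in the control and 14.3 and 28.6 FPKM in the 7KC libraries, and Alb at 41547 and 25203 against 26969 and 18988 FPKM. Markers of Kupffer cells, B cells, neutrophils, endothelium, stellate cells and cholangiocytes had ratios of summed FPKM, 7KC over control, of 1.46, 1.43, 1.55, 1.02, 0.811 and 1.04. Single markers differed within these sums. Of 5 Kupffer cell markers, 3 lay above the control libraries without overlap and 1, Vsig4, below, against 25.1% and 27.4% of all tested genes. The fifth, Clec4f, overlapped. Of 3 tested B cell markers 1 lay above and 2 overlapped, and of 3 tested neutrophil markers 2 lay above and 1 overlapped. The alternatives tried were other pseudocounts, filters, scalings and priors, each library left out, and a replicate block.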

Additional observations from a re-analysis of the deposited data

How the results depend on the processing

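The direction of all 10 genes was the same under each of the 13 alternatives, and 5 or 6 of them were at least 2-fold higher without overlap. The count past the threshold was less stable. Against 2 genes, 0 passed without a filter on low values and 6 passed with every library set to an equal sum, which shifted the median over all genes from -0.026 to 0.16 and the calls over all genes from 59 to 398 higher. For the pathway list the same rescaling gave 4 calls higher against 0. Leaving out 1 library gave 0 to 6 of the 10 genes (6 without control replicate 1, 1 without control replicate 2, 0 without either 7KC replicate) and 0 to 4 pathway genes (4 without control replicate 1). Without control replicate 1, 404 of all genes were higher. A group of 1 library is assumed to vary like the other group. The log2 difference of the receptor ratio ranged from 0.192 to 0.783 with a library left out. With the replicate number as a block, 0 of the 10 genes passed, and 0 of all genes tested. Deviations of same-numbered libraries correlated weakly and negatively (-0.141 over genes), and the labels do not say that a number marks a shared batch or day, so the numbers were not taken as pairs. The crossed pairing, chosen after seeing the data, gave 6 of the 10 genes and 3 pathway genes. It also called 551 higher and 37 lower of all 12299 genes tested. Against 3, the target list had 14 calls with rescaling and 12 without control replicate 1, and 0 without a filter, without either 7KC replicate and with the block. Over the alternatives other than the crossed pairing, the adjusted p ranged from 0.00741 to 0.158 for Tnfaip2, from 0.0201 to 0.221 for Nfkbie, from 0.0209 to 0.322 for Tnfaip3 and from 0.0223 to 0.434 for Tnf. The cause of these shifts was not tested. With 2 libraries a group the 95% intervals are wide, and depth limits mainly Tnf, at about 16 reads in control replicate 2.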
